A study of Mus musculus with 32 samples.

Results

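The 36 genes described here encode the proteins of nucleotide excision repair and of translesion synthesis, and their transcripts were measured by RNA sequencing in the epidermis of 32 mice. They were taken by symbol, each matched exactly 1 gene, and all 36 were among the 15546 genes tested out of the 55401 genes counted. Nucleotide excision repair removes the bulky base adducts that UV light makes in DNA. A lesion is found either anywhere in the genome or where it stalls RNA polymerase, the helix around it is opened by the complex TFIIH, the damaged strand is cut on both sides, and the gap is filled and sealed. Translesion polymerases do not remove a lesion but copy past it, so that replication can go on. In skin, inherited loss of some of the excision genes, or of the polymerase encoded by Polh, is known as xeroderma pigmentosum, in which sunlight causes early skin cancers.

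Each mouse gave 1 library, and 8 mice, 4 male and 4 female, formed each of 4 groups. The WT control and WT UV groups carried the genotype label +/+, and the Ppard-/- control and Ppard-/- UV groups the label -/- for Ppard, which encodes the nuclear receptor PPARβ/δ. All mice were of a mixed background that carries the hairless allele of the SKH-1 stock, and were 10 to 14 weeks old. UV mice were exposed once on the back to 120 mJ/cm2 and sampled 24 h later, and control mice were handled in the same way without exposure. Mice are named by the numbers of their labels, with M for male and F for female. The comparisons asked how exposure changed these transcripts in each genotype, and whether the genotypes differed. A level is given in cpm, the count of a gene per M (mega) of counted reads after scaling between libraries, and a change as a log2 fold change ± its standard error. Called means a Benjamini-Hochberg adjusted P under 0.05 in edgeR's quasi-likelihood test over all 15546 genes, and every adjusted P below comes from that test unless another tool is named.

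Gene counts summed to between 22919428 and 40653581 reads in each mouse. Ppard itself kept reads in the mice labelled Ppard-/-, at 70.3 to 88.9 cpm (median 77.5) without UV and 175 to 239 cpm (median 219) after it, against 87.3 to 105 cpm (median 93.96) and 252 to 326 cpm (median 279) in WT. A count over the whole gene does not check a deletion of part of it, so the genotype is used here as labelled. Among the members, 3 lie on the chromosome of Ppard, Gtf2h4 at 7.37 Mb, Polh at 17.9 Mb and Gtf2h5 at 22.2 Mb from it. The suprabasal keratinocyte markers (Krt1, Krt10, Lor, Flg, Dsg1a, Sbsn) defined the tissue in every mouse, and their sum was lower after UV, from a median of 72080 to 18930 cpm in WT and from 79000 to 19220 cpm in Ppard-/-. The sum of 5 basal markers was higher after UV (medians 11230 and 22000 cpm in WT, 9079 and 26070 cpm in Ppard-/-). Single basal markers were not uniform, with 3 called higher and 1 lower in WT (34.5% and 36.5% of all genes) and 4 and 0 in Ppard-/- (37.3% and 33.5%). Also higher was the sum of 5 neutrophil and monocyte markers (S100a8, S100a9, Ly6g, Lyz2 and Csf3r, 58.8 and 855 cpm in WT, 45.8 and 786 cpm in Ppard-/-). Of these 5, 4 were tested, with 3 called higher and 0 lower in WT and 4 and 0 in Ppard-/-, beside the same shares of all genes. Ly6g had no reads in any control mouse, and which cells made these transcripts was not tested. The T cell and Langerhans cell sums were lower. The part of these shifts in the members' changes was not tested, and in whole epidermis fewer cells of a type and less RNA per cell cannot be told apart. One Ppard-/- UV female, 54F, stood apart with 2187 cpm of 7 dermal fibroblast markers, against at most 106 cpm in any other mouse, and the sum of 4 skeletal muscle markers ran from 0.509 to 2368 cpm over the mice. Of 14 known p53 target genes, 13 rose in WT and 14 in Ppard-/-, where 34.5% and 37.3% of all genes did.

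Promoter windows are shown for Polk, which rose most in both genotypes, for Rpa2, whose rise was called in Ppard-/- mice, and for Pold1, the 1 member window with an E2F word. Each runs from 250 bases before to 50 bases after the RefSeq start (build GRCm38.p6), 5′ to 3′ on the strand of the gene. Capitals mark an E2F word, meaning TTTGGCGC, TTTCCCGC, TTTCGCGC or TTTGCCGC on either strand. Polk lies at chr13:96542530-96542829 (minus strand), Rpa2 at chr4:132768110-132768409 (plus strand) and Pold1 at chr7:44548766-44549065 (minus strand).
Polk: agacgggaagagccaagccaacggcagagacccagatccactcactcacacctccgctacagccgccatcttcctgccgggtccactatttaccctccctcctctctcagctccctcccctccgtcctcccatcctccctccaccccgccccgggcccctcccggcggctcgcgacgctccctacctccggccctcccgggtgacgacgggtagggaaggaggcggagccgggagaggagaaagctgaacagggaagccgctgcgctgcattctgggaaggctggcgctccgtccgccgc
Rpa2: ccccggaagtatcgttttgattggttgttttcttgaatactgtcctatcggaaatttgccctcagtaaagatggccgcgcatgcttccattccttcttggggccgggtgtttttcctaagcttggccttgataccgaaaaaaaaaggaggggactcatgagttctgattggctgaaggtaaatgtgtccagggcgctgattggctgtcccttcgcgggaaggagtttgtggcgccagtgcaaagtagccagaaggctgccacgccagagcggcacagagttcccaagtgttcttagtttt
Pold1: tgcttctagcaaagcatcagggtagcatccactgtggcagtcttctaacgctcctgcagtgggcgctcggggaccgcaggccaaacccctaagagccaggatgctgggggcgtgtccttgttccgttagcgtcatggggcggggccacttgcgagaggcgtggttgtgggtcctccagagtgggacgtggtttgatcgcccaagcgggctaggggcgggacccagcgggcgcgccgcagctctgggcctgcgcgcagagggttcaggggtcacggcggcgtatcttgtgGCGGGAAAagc

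E2F words occurred in 2.26% of 32851 promoter windows of this length and in 1 of the 29 member windows at hand. In Pold1 the word GCGGGAAA, which is TTTCCCGC on the other strand, began 39 bases after the start. The AP-1 word TGANTCA, searched on both strands like the others, stood in 7.81% of all windows and in 2 members (Gtf2h4 and Mnat1). The CCAAT word was in 37.4% of all windows and in 12 members, among them Rad23b, Ercc5 and Rpa2. No word contains another, and a match is a string in the window, not a bound site. Windows for Xpc, Ddb2, Ercc3, Ccnh, Pole, Poli and Rev3l were not analysed here.

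Per kilobase of annotated exon, the members spanned a wide range in unexposed WT epidermis. Ddb1, which joins damage binding to a ubiquitin ligase, had the highest median level at 57.5 cpm per kb, followed by Rad23b at 29.4, Lig3 at 17.4 and Ercc1 at 17.4 cpm per kb. At the low end stood Pole, the catalytic subunit of polymerase epsilon, at 0.873 cpm per kb, below Rad18 at 1.17 and Ercc8 at 1.37 cpm per kb.

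UV changed most of the members, some upward and some downward. In WT epidermis 16 of 36 members rose, 12 fell and 8 were not called, where 34.5% of all tested genes rose and 36.5% fell. In Ppard-/- epidermis 19 rose, 13 fell and 4 were not called, where 37.3% of all genes rose and 33.5% fell. The median log2 fold change of the members was 0.11 in WT and 0.20 in Ppard-/-, beside -0.014 and 0.088 over all genes. Changes of more than 1.5-fold were the minority. In WT, 6 members rose and 5 fell by more than that (21.8% and 26.1% of all genes), and in Ppard-/- 9 rose and 5 fell (24.8% and 22.8% of all genes). The 8 UV mice and the 8 control mice did not overlap for 9 higher and 9 lower members in WT (21.3% and 22.1% of all genes) and for 12 higher and 5 lower members in Ppard-/- (18.6% and 16.5% of all genes). In both genotypes alike, 16 members rose and 10 fell, where 30.9% and 30.0% of all genes did. The WT and Ppard-/- comparisons use separate mice. Both came from 1 fit to all 32 mice, so leaving out a mouse of 1 genotype could change a call in the other. Without scaling factors between the libraries the WT split was 11 higher and 14 lower, since Cetn2, Ddb1, Ccnh, Mnat1 and Rad18 were no longer called and Pold1 and Cdk7 were called lower.

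**Figure D1:**
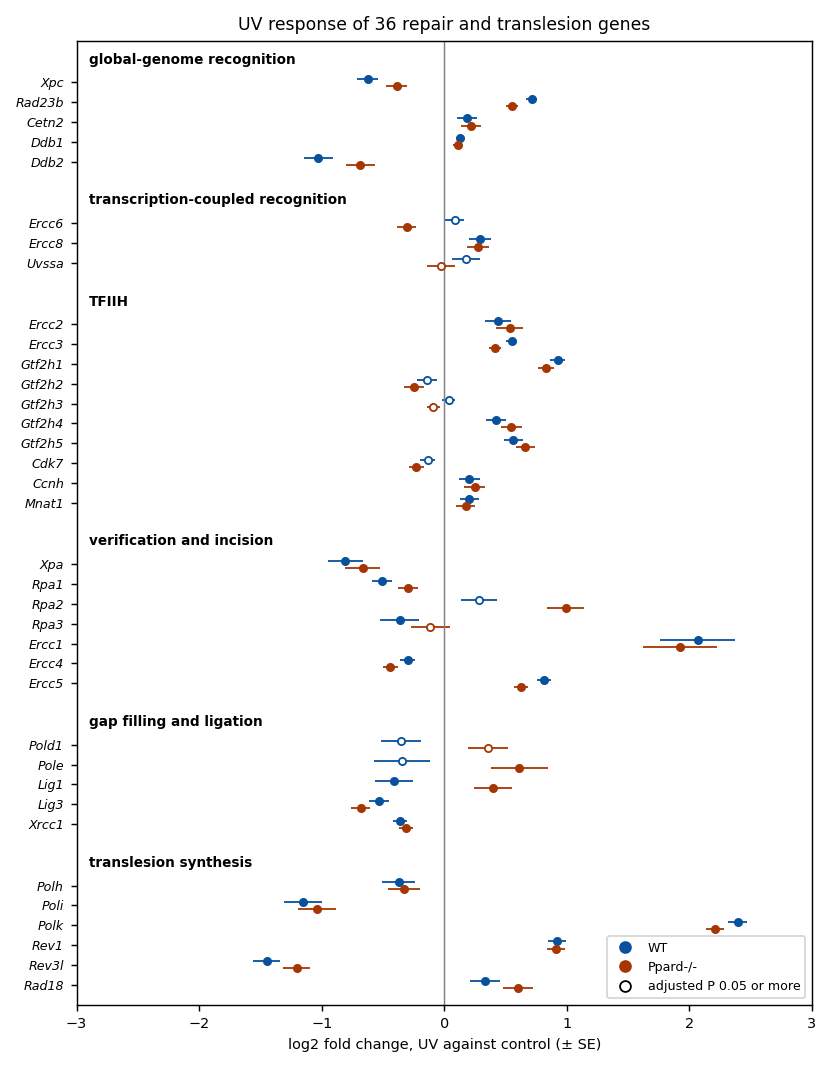
Log2 fold change of each of the 36 members after UV (x axis, ± SE) in WT (blue) and Ppard-/- mice (brown), 8 UV against 8 control mice each, grouped by repair step; open points have an adjusted P of 0.05 or more. Polk and Ercc1 lie farthest to the right in both genotypes and Rev3l farthest to the left, and the pairs of Lig1, Pole, Pold1, Ercc6, Uvssa and Gtf2h3 lie on opposite sides of 0 while the others do not.

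Among the genes that find lesions across the genome, both sensors that bind damaged DNA fell while their partners rose. Ddb2, the subunit of the UV-damaged DNA binding complex that contacts the lesion, stood at 8.37 to 12.7 cpm (median 9.88) in WT controls and 4.07 to 6.11 cpm (median 4.72) after UV. In Ppard-/- mice its level was 6.62 to 9.98 cpm (median 8.99) without UV and 4.65 to 7.90 cpm (median 4.95) after it. The WT groups did not overlap, and in Ppard-/- 1 UV female reached into the control range. The log2 fold change of Ddb2 was -1.03 ± 0.12 (adjusted P = 1.13e-08) in WT and -0.69 ± 0.12 (adjusted P = 8.86e-06) in Ppard-/-. Xpc, which initiates repair by binding the distorted helix, changed by -0.63 ± 0.083 (adjusted P = 1.35e-07) in WT and -0.39 ± 0.083 (adjusted P = 0.000141) in Ppard-/-. Of Ddb2's exon bases 23.8% lie opposite exons of Acp2. The Xpc medians went from 15.1 to 10.2 cpm and from 13.3 to 10.7 cpm.

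Rad23b, which holds and stabilises Xpc, moved the other way. It measured 152 to 183 cpm (median 169) in WT controls and 253.5 to 292 cpm (median 278) in WT UV mice. The Ppard-/- groups held 157 to 193.5 cpm (median 176) and 217 to 294 cpm (median 249.6). Every UV mouse was above every control mouse of its genotype. The log2 fold change of Rad23b was 0.71 ± 0.047 (adjusted P = 1.92e-13) in WT and 0.55 ± 0.047 (adjusted P = 3.39e-11) in Ppard-/-. Cetn2, another part of the Xpc complex, and Ddb1 rose by less, Cetn2 by 0.19 (adjusted P = 0.0477) and 0.22 (adjusted P = 0.0213) and Ddb1 by 0.13 (adjusted P = 0.00311) and 0.11 (adjusted P = 0.011) in WT and Ppard-/- in turn. Those 2 calls were not firm, since Cetn2 was lost in WT without any 1 of 11 mice (adjusted P up to 0.115) and in Ppard-/- without any 1 of 4, and Ddb1 was lost in Ppard-/- without 52M or 74F (up to 0.118).

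The genes that act where a lesion stalls RNA polymerase changed little. Ercc8, whose product marks stalled polymerase as part of a ubiquitin ligase, was at 9.72 to 12.6 cpm (median 10.5) and 12.01 to 15.6 cpm (median 12.7) in WT control and UV mice. In Ppard-/- mice the corresponding values were 9.56 to 12.3 cpm (median 10.4) and 9.98 to 15.9 cpm (median 12.4). It rose by 0.29 ± 0.088 (adjusted P = 0.00473) in WT and 0.28 ± 0.088 (adjusted P = 0.00688) in Ppard-/-, with overlapping groups. Uvssa, which brings TFIIH to the stalled polymerase, ran at 28.8 to 51.2 cpm (median 37.99) in WT controls and 37.1 to 51.4 cpm (median 43.1) in WT UV mice. Its Ppard-/- groups held 26.2 to 41.6 cpm (median 36.2) and 26.02 to 47.03 cpm (median 33.7). Neither change passed the test, at 0.18 ± 0.11 (adjusted P = 0.163) and -0.03 ± 0.11 (adjusted P = 0.83). Ercc6, the chromatin remodeller that first engages the stalled polymerase, was not called in WT at 0.09 ± 0.078 (adjusted P = 0.335) and fell in Ppard-/- at -0.31 ± 0.078 (adjusted P = 0.000994). The difference between those 2 responses, tested as such, was -0.39 ± 0.11 (adjusted P = 0.077).

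TFIIH opens the helix for repair and also serves the start of transcription. Of its 10 subunits, 7 rose in both genotypes (Ercc2, Ercc3, Gtf2h1, Gtf2h4, Gtf2h5, Ccnh and Mnat1), none fell in WT, and 2 fell in Ppard-/- (Gtf2h2 and Cdk7). Of all genes 30.9% rose in both genotypes, 36.5% fell in WT and 33.5% fell in Ppard-/-. The median log2 fold change over the 10 was 0.31 in WT and 0.33 in Ppard-/-. Gtf2h1, the p62 subunit that ties the core to Xpc and to Uvssa, measured 32.1 to 42.2 cpm (median 37.5) in WT controls and 60.99 to 83.6 cpm (median 70.6) in WT UV mice. The Ppard-/- groups stood at 32.8 to 40.05 cpm (median 36.9) and 57.3 to 87.03 cpm (median 63.9). No UV mouse reached down to a control mouse, and the change was 0.93 ± 0.061 (adjusted P = 2.14e-13) in WT and 0.83 ± 0.061 (adjusted P = 2.21e-12) in Ppard-/-. Ercc3, the XPB translocase that starts the opening, was at 37.3 to 46.96 cpm (median 40.9) in WT controls and 52.3 to 65.5 cpm (median 60.04) in WT UV mice. In Ppard-/- it was at 34.95 to 47.4 cpm (median 42.6) without UV and 48.6 to 60.1 cpm (median 55.2) after it. Its groups were likewise separate, with changes of 0.55 ± 0.048 (adjusted P = 6.34e-11) and 0.41 ± 0.048 (adjusted P = 1.48e-08).

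The remaining TFIIH subunits moved by less than Gtf2h1. Gtf2h5, the small subunit that stabilises the complex, rose by 0.56 (adjusted P = 2.53e-07) in WT and 0.66 (adjusted P = 1.76e-08) in Ppard-/-. Gtf2h4 rose by 0.42 (adjusted P = 6.92e-05) and 0.55 (adjusted P = 2.02e-06), and Ercc2, the XPD helicase, by 0.44 (adjusted P = 0.000695) and 0.53 (adjusted P = 8.51e-05). Of Ercc2's annotated exon bases 42.4% lie opposite exons of Klc3 or Gm26852, and the strand setting of the counting is not given in the sources used here. Within the kinase module of TFIIH the cyclin Ccnh rose by 0.20 (adjusted P = 0.0339) and 0.25 (adjusted P = 0.011) and the assembly factor Mnat1 by 0.21 (adjusted P = 0.0181) and 0.17 (adjusted P = 0.0427). The kinase Cdk7 itself was not called in WT at -0.13 (adjusted P = 0.0528) and fell in Ppard-/- at -0.23 (adjusted P = 0.00175). Gtf2h2 showed -0.14 (adjusted P = 0.127) in WT and fell by 0.25 in Ppard-/- (adjusted P = 0.00864), and Gtf2h3 was called in neither genotype. The Ccnh call was lost in WT without 32M, 54M, 71F or 77F (adjusted P up to 0.0895) and in Ppard-/- without 52M, that of Mnat1 in Ppard-/- without any 1 of 15 mice (up to 0.159). Without 43M Gtf2h2 was called lower in WT, and without 43M, 51F, 69M or 72M Cdk7 was.

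Of the 7 genes for damage verification and incision, Ercc1 and Ercc5 rose, and Xpa, Rpa1 and Ercc4 fell in both genotypes. Ercc1 encodes the partner of the 5′ nuclease XPF. It measured 34.7 to 77.5 cpm (median 54.01) in WT controls and 118 to 363 cpm (median 236.5) in WT UV mice. The Ppard-/- groups stood at 35.7 to 103 cpm (median 40.7) and 124 to 366 cpm (median 231). UV and control mice of a genotype did not overlap, yet each group fell into a low and a high set. Of the 16 UV mice, 5 stood at 118 to 131 cpm (71M and 77F in WT, 52F, 66F and 72M in Ppard-/-) and the other 11 at 207 to 366 cpm. In both genotypes low mice made up more of the control group than of the UV group. The part of this in the change with UV was not tested. Ercc1 rose by 2.07 ± 0.30 (adjusted P = 7.88e-07) in WT and 1.92 ± 0.30 (adjusted P = 2.41e-06) in Ppard-/-. Its partner Ercc4, which encodes the XPF nuclease, fell by 0.30 ± 0.062 (adjusted P = 0.000114) in WT and by 0.44 ± 0.063 (adjusted P = 4.69e-07) in Ppard-/-, again without overlap.

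Ercc1 was also the member that varied most between mice of 1 group, a pattern noticed after its values were seen. Its log2 level had a standard deviation of 0.62 within groups, against a median of 0.175 over the 10122 genes with a mean of at least 5 cpm. Among WT controls it was 34.7 to 45.2 cpm in 4 mice and 62.8 to 77.5 cpm in the other 4, and among Ppard-/- controls 35.7 to 45.2 cpm in 5 mice and 81.9 to 103 cpm in 3. Both sexes and both genotypes were found in each set. The gene whose deviations from the group means followed those of Ercc1 most closely was Eml2, a microtubule-associated protein gene (Pearson r = 0.89 over 32 mice that share library preparation and scaling, a description with no test). Eml2 and Ercc1 both lie on chromosome 7 (GRCm38, 19176421 to 19206482 and 19344778 to 19356524). Of the 20 genes with the largest absolute r, 15 lie on chromosome 7, which holds 7.58% of the genes compared, 9 of them with positive and 6 with negative r. Sae1 had r = -0.825 and Opa3 r = -0.79. Ercc2, the nearest other member on that chromosome, had r = 0.61, and of the 34 members at this mean level (all but Rpa3 and Poli) none other than Ercc1 had more than 4 of its 20 closest genes on its own chromosome.

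**Figure D2:**
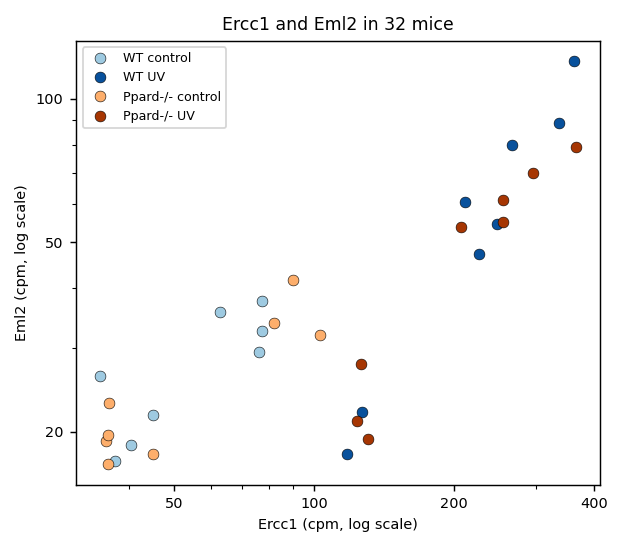
Level of Eml2 (y axis) against Ercc1 (x axis) in each of the 32 mice, both in cpm on log scales, colored by group. Within controls and within UV mice the points form a low and a high set, with Ercc1 at 118 to 131 cpm in the 5 low UV mice and at 207 to 366 cpm in the 11 high ones.

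Ercc5, which encodes the 3′ nuclease XPG, was at 39.8 to 48.8 cpm (median 43.3) in WT controls and 63.3 to 82.1 cpm (median 78.8) in WT UV mice. In the Ppard-/- mice it was at 34.2 to 47.1 cpm (median 44.7) without UV and 52.5 to 80.5 cpm (median 69.8) after it. Both pairs of groups were separate, with changes of 0.81 ± 0.058 (adjusted P = 8.6e-13) and 0.62 ± 0.058 (adjusted P = 2.04e-10). Xpa, the scaffold that verifies the lesion, fell from a median of 8.39 to 4.99 cpm in WT (-0.81 ± 0.14, adjusted P = 1.29e-05) and from 8.47 to 4.72 cpm in Ppard-/- (-0.66 ± 0.14, adjusted P = 0.000163). The WT groups of Xpa did not overlap and the Ppard-/- groups did.

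The 3 subunits of RPA, which coats the undamaged strand, did not move together. Rpa1, the large subunit, fell by 0.51 (adjusted P = 3e-06) in WT and by 0.30 (adjusted P = 0.00197) in Ppard-/-. Rpa2, the middle subunit, was at 5.89 to 12.8 cpm (median 8.92) in WT controls and 8.36 to 14.7 cpm (median 10.4) in WT UV mice, groups that overlapped. It was at 5.80 to 10.2 cpm (median 7.997) in Ppard-/- controls and 11.8 to 22.6 cpm (median 16.1) in Ppard-/- UV mice, with every UV mouse above every control. The change was 0.28 ± 0.15 (adjusted P = 0.0855) in WT and 0.99 ± 0.15 (adjusted P = 1.04e-06) in Ppard-/-. The WT change was called without 38M, 43M, 54F, 57F or 61F (adjusted P down to 0.0223). Rpa3, the small subunit, was called lower in WT at -0.36 ± 0.16 (adjusted P = 0.043) and not in Ppard-/- at -0.11 ± 0.16 (adjusted P = 0.535). It was the WT call lost most often when 1 mouse was left out, gone without any 1 of 19 mice (adjusted P up to 0.106) and by DESeq2, and its counts were low, from 61 to 179 reads per mouse.

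**Figure D3:**
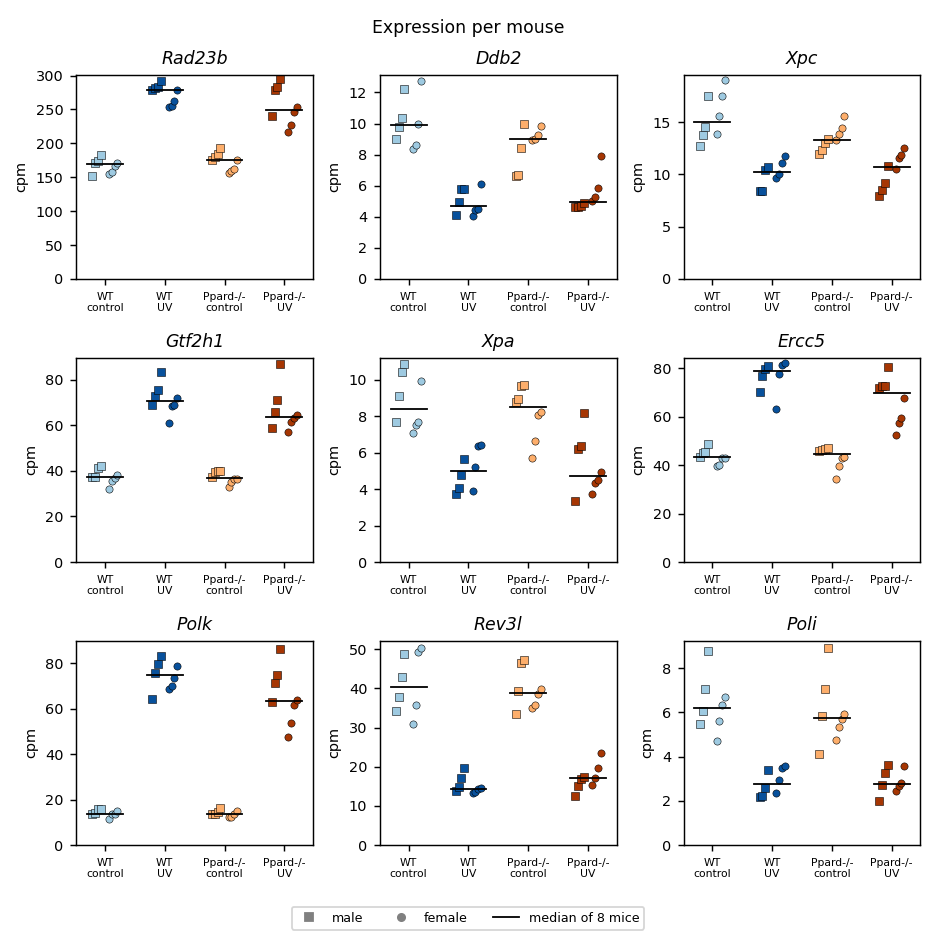
Level in cpm (linear y axes from 0) of 9 members in each of the 32 mice, by group; squares are males, circles females, and lines medians of 8 mice. Rad23b, Gtf2h1, Ercc5 and Polk show UV mice above all controls of their genotype, Rev3l and Poli below, and Ddb2, Xpc and Xpa below in WT with some overlap in Ppard-/-.

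In gap filling and ligation, Lig3 and Xrcc1 fell in both genotypes, and the replicative members Pold1, Pole and Lig1 had opposite signs in the 2 genotypes. Lig3, the ligase that seals the repair patch in cells outside S phase, measured 103 to 164 cpm (median 127) in WT controls and 79.96 to 97.2 cpm (median 89.3) in WT UV mice. The Ppard-/- groups stood at 103 to 146 cpm (median 131) and 68.1 to 101 cpm (median 76.4). UV mice were below every control of their genotype, with changes of -0.53 ± 0.080 (adjusted P = 1.25e-06) and -0.68 ± 0.080 (adjusted P = 1.85e-08). Of Lig3's exon bases 25.1% lie opposite exons of Rffl. Xrcc1, the scaffold that holds Lig3, was at 29.2 to 40.5 cpm (median 30.7) in WT controls and 21.6 to 27.5 cpm (median 25.1) in WT UV mice. In Ppard-/- it was at 29.7 to 33.7 cpm (median 30.5) without UV and 22.7 to 26.8 cpm (median 25.6) after it. Again no group overlapped its control, and the changes were -0.36 ± 0.058 (adjusted P = 3.37e-06) and -0.31 ± 0.058 (adjusted P = 2.96e-05).

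Lig1, the ligase of replicating cells, fell in WT and rose in Ppard-/-. It was at 11.7 to 25.4 cpm (median 17.3) in WT controls, 9.56 to 14.8 cpm (median 12.8) in WT UV mice, 11.3 to 16.9 cpm (median 11.9) in Ppard-/- controls and 11.9 to 26.98 cpm (median 14.5) in Ppard-/- UV mice. All 4 ranges overlapped. The change was -0.41 ± 0.15 (adjusted P = 0.0185) in WT and 0.40 ± 0.15 (adjusted P = 0.022) in Ppard-/-. Pole showed -0.34 ± 0.23 (adjusted P = 0.186) in WT, which was not called, and rose in Ppard-/- at 0.61 ± 0.23 (adjusted P = 0.0192). Pold1, the catalytic subunit of polymerase delta, was called in neither, at -0.35 ± 0.16 (adjusted P = 0.055) and 0.36 ± 0.16 (adjusted P = 0.051).

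The calls on these 3 genes changed when single mice were left out. Lig1 was not called in WT without 38M, 57F or 61F (adjusted P up to 0.109), and not in Ppard-/- without 66F, 72M or 74F (up to 0.0845). Pole lost its Ppard-/- call without 52M or 74F (up to 0.0577). Pold1 was called lower in WT without 54M, 56M, 59F or 71F, and higher in Ppard-/- without any 1 of 11 mice (adjusted P down to 0.0224). The summed S phase markers were higher after UV in both genotypes, and single markers were not uniform. The sum of 13 S phase markers (Mcm2 to Mcm7 among them) had a median of 297 cpm in WT controls and 426 cpm in WT UV mice (ranges 208 to 430 and 334 to 451 cpm), with 7 of 13 higher and 2 lower. In Ppard-/- it was 235 and 453 cpm (188 to 330 and 376 to 677 cpm), with 10 higher and 1 lower. Of 10 G2 and M markers, 0 rose and 5 fell in WT and 4 rose and 0 fell in Ppard-/-. Beside both marker lists, 34.5% of all genes rose and 36.5% fell in WT, and 37.3% rose and 33.5% fell in Ppard-/-. The WT control with the highest S phase and G2/M sums was 61F, the Ppard-/- control 62F and the Ppard-/- UV mouse 66F. Their part in the Lig1, Pole, Pold1 and Rpa2 values was not tested.

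**Figure D4:**
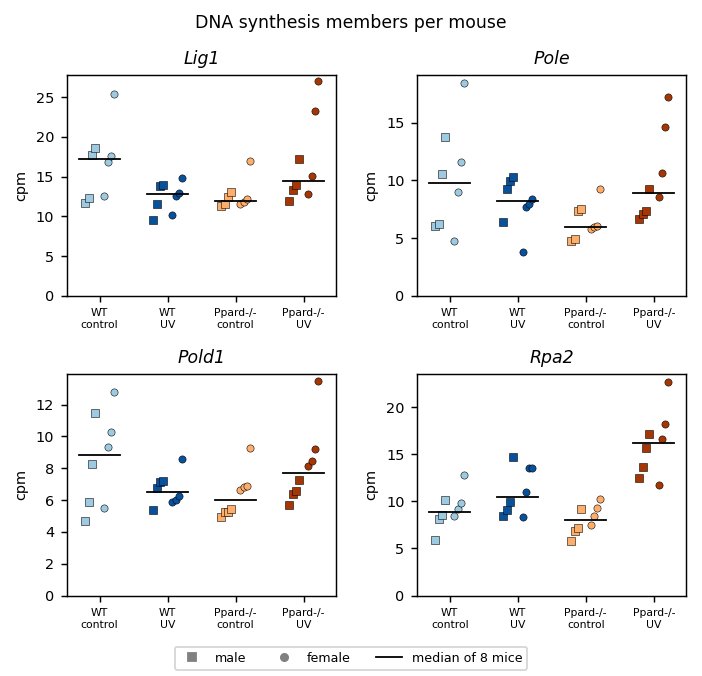
Level in cpm (linear y axes from 0) of Lig1, Pole, Pold1 and Rpa2 in each of the 32 mice by group, with squares for males, circles for females and lines at medians of 8 mice. For Lig1 the median falls from 17.3 to 12.8 cpm in WT and rises from 11.9 to 14.5 cpm in Ppard-/-, with overlapping ranges, and for Rpa2 the Ppard-/- UV mice lie above all Ppard-/- controls.

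The translesion genes held both the largest rise and the largest fall of all 36 members. Polk encodes a Y-family polymerase that also fills gaps in excision repair. Its level was 11.5 to 16.1 cpm (median 13.8) in WT controls and 64.4 to 83.3 cpm (median 74.7) in WT UV mice. In Ppard-/- mice it was 12.5 to 16.3 cpm (median 13.7) and 47.7 to 86.3 cpm (median 63.5). The lowest UV mouse was well above the highest control in both genotypes, and the change was 2.40 ± 0.078 (adjusted P = 1.8e-19) in WT and 2.21 ± 0.077 (adjusted P = 1.19e-18) in Ppard-/-. Rev1, the scaffold on which translesion polymerases are exchanged, also rose without overlap, by 0.92 ± 0.073 (adjusted P = 9.19e-12) and 0.91 ± 0.073 (adjusted P = 1.18e-11). Of Rev1's exon bases 26.6% lie opposite exons of Eif5b.

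Rev3l encodes the catalytic subunit of polymerase zeta, which extends DNA beyond a lesion. It was at 31.01 to 50.3 cpm (median 40.3) in WT controls and 13.3 to 19.6 cpm (median 14.4) in WT UV mice. In Ppard-/- it was at 33.5 to 47.3 cpm (median 38.95) without UV and 12.5 to 23.4 cpm (median 17.01) after it. No UV mouse reached the controls, and the change was -1.45 ± 0.11 (adjusted P = 3.92e-12) and -1.20 ± 0.11 (adjusted P = 1.61e-10). Poli, another Y-family polymerase, stood at 4.72 to 8.77 cpm (median 6.19) in WT controls and 2.15 to 3.59 cpm (median 2.75) in WT UV mice. Its Ppard-/- groups held 4.13 to 8.89 cpm (median 5.76) and 1.99 to 3.62 cpm (median 2.76). These groups were separate too, with changes of -1.16 ± 0.16 (adjusted P = 1.83e-07) and -1.04 ± 0.16 (adjusted P = 1.11e-06).

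Polh, whose product copies accurately across UV-induced thymine dimers, fell from a median of 27.8 to 22.2 cpm in WT (-0.37 ± 0.13, adjusted P = 0.0142) and from 20.7 to 16.6 cpm in Ppard-/- (-0.33 ± 0.13, adjusted P = 0.0289). Its groups overlapped, and the call was lost in WT without 61F (adjusted P = 0.0686) and in Ppard-/- without 69F (0.069). Rad18, the ubiquitin ligase that recruits these polymerases to PCNA, rose by 0.33 ± 0.12 (adjusted P = 0.0182) in WT and 0.60 ± 0.12 (adjusted P = 0.000109) in Ppard-/-.

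Without UV, 0 of 36 members differed between Ppard-/- and WT mice by edgeR, where 0.206% of all genes did. The count was also 0 by DESeq2 and by limma-trend, and 6 members had an unadjusted P under 0.05. The lowest log2 differences were in Pole at -0.64 ± 0.23 (adjusted P = 0.401) and Pold1 at -0.45 ± 0.16 (adjusted P = 0.407). After UV, 2 members differed, where 3.31% of all genes did. That share includes all 7 dermal fibroblast markers, called higher in Ppard-/- UV mice and high in the female 54F. Rpa2 was higher in Ppard-/- UV than in WT UV mice by 0.53 ± 0.15 (adjusted P = 0.0429), and Ercc5 was lower by 0.20 ± 0.057 (adjusted P = 0.048). Both pairs of groups overlapped. Neither call was firm, as Rpa2 lost its call without any 1 of 15 of the 32 mice and Ercc5 without any 1 of 18, and neither was called by limma-trend. Ercc6 came next at -0.27 ± 0.078 (adjusted P = 0.0533). The Ercc5 difference was -0.057 among males alone.

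The difference in UV response between the genotypes was called for 0 of 36 members by edgeR, where 0.765% of all genes were called. It was called for 4 by DESeq2 (Rad23b, Rpa2, Ercc6 and Lig1) and for 0 by limma-trend, and 8 members had an unadjusted P under 0.05. The 4 largest by size were Pole at 0.95 ± 0.32 (adjusted P = 0.119), Lig1 at 0.81 ± 0.22 (adjusted P = 0.0651), Pold1 at 0.71 ± 0.23 (adjusted P = 0.108) and Rpa2 at 0.71 ± 0.21 (adjusted P = 0.0844). Without the WT control 71F, Lig1, Ercc6 and Pold1 were called. Without the female 54F, which stood apart, 28 members were called after UV in WT and 33 in Ppard-/-, 1 (Rpa2) between genotypes after UV and 1 (Lig1) in the difference of responses. So the opposite calls for Lig1 in the 2 genotypes are not, by edgeR over all mice, shown to differ. The UV response, averaged over the genotypes, did not pass the test for a difference between females and males in any member (0 of 36, also by DESeq2 and limma-trend, and 0 at an unadjusted P under 0.05). Over all genes 0% were called by edgeR, with 1091 genes at an unadjusted P under 0.05, 22 called by DESeq2 and 2 by limma-trend.

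A second list held 40 further genes that work with these proteins, of which 39 were tested. In WT 17 rose, 12 fell and 10 were not called, and in Ppard-/- 22 rose, 11 fell and 6 were not called, with medians of 0.12 and 0.22. Over all genes 34.5% rose and 36.5% fell in WT, and 37.3% rose and 33.5% fell in Ppard-/-. The largest rise was in Polr2a, which encodes the large subunit of RNA polymerase II, the enzyme that senses lesions during transcription, at 3.15 ± 0.18 (adjusted P = 8.18e-15) in WT and 3.19 ± 0.18 (adjusted P = 7.91e-15) in Ppard-/-. Other rises included Pold4, the small subunit of polymerase delta, at 1.42 ± 0.097 (adjusted P = 4.15e-13) and 1.35 ± 0.097 (adjusted P = 1.24e-12). Fen1, the flap nuclease, rose by 0.80 ± 0.11 (adjusted P = 2.62e-07) and 1.24 ± 0.11 (adjusted P = 9.15e-11). The sliding clamp Pcna rose by 0.67 ± 0.16 (adjusted P = 0.000422) and 0.88 ± 0.16 (adjusted P = 1.57e-05). Exons of Gm10143 or Tmem258 lie opposite 84.2% of Fen1's exon bases, and 24.6% of Pold4's overlap AC109138.7 on the same strand. Shprh, a ubiquitin ligase for PCNA, fell by 1.33 ± 0.10 (adjusted P = 3.44e-12) and 1.38 ± 0.10 (adjusted P = 2.05e-12), and Chd1l, a chromatin remodeller, by 1.12 ± 0.077 (adjusted P = 4.02e-13) and 1.12 ± 0.077 (adjusted P = 4.94e-13). These 6 genes were chosen after their values were seen.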

How the data were processed

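Epidermis of 32 mice was sequenced from 500 ng of total RNA per library (RNA quality numbers 6.4 to 8.4 per the labels) with a stranded TruSeq kit. The study's methods state a higher range of RNA quality numbers than the labels do. Per the submitters' processing notes, the authors used bcl2fastq, cutadapt (version 1.8), STAR (2.5.3a) and HTSeq (0.9.1) on build GRCm38, and per the study's methods they removed ribosomal and low-complexity reads. The authors deposited raw read counts per gene for each mouse, without normalization or filtering. The strand setting of the counting is not given in the sources used here. Reads without a gene (6.80% to 9.75% of reads) and ambiguous reads (1.28% to 1.56%) stayed out of library sizes and tests. Ensembl identifiers were paired with symbols from a names table (55141 of 55401 matched). Coordinates and overlaps are from GENCODE M21 (GRCm38).

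The test kept a gene that reached 1 cpm in 1 mouse or more, TMM scaling was applied, and edgeR (4.0.16, R 4.3.3) fitted 1 mean per sex, genotype and treatment to all 32 mice. Contrasts were averaged over the sexes, except that the UV response of females minus that of males was averaged over the genotypes. All were tested with edgeR's quasi-likelihood test and adjusted by Benjamini-Hochberg over all tested genes in each contrast. The standard error given is the absolute log2 fold change divided by the square root of the F statistic of that test. The study fitted limma-trend, which was an alternative (limma 3.58.1), as were DESeq2 (1.42.0), 2 other scalings, 2 other filters, an additive sex term, subsets of the mice and leaving out each mouse. Depth was 22919428 to 40653581 counted reads (median 27600228), and reads carry no molecular identifiers. Values were given in full for the 2 members of each step with the smallest P for UV in WT, for members with a called log2 change over 1, and for members called in a genotype contrast or interaction. The members and lists were chosen with earlier results of these data known. The scripts were tested on simulated data. The labels give each sample as a separate mouse.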

Additional observations from a re-analysis of the deposited data

Results flagged for a closer look

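In 16 of 144 combinations of a member and a group of 8 mice, the highest or lowest mouse lay far from the other 7, its gap to the nearest being more than 0.526 of the group's range (Dixon's rule, which chance meets in about 1 group of 20). Of these, 4 were the Ppard-/- UV female 66F, which was highest for Ddb2 at 7.90 cpm (others 4.65 to 5.84), Rpa1 at 56.3 cpm (34.4 to 42.7), Pold1 at 13.5 cpm (5.72 to 9.22) and Rad18 at 14.3 cpm (8.37 to 11.0), and which also had the highest S phase sum of its group at 677 cpm. The Ppard-/- control female 62F was highest for Pold1 at 9.24 cpm (4.92 to 6.90) and Lig1 at 16.9 cpm (11.3 to 13.1), with the highest S phase sum of its group at 330 cpm. The WT control female 61F was highest for Rad18 at 10.3 cpm (6.16 to 7.78), with the highest G2/M sum of all groups at 704 cpm. The part of these sums in the values was not tested.

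The Ppard-/- UV male 72M was highest for Gtf2h1 at 87.0 cpm (57.3 to 71) and Cdk7 at 32.4 cpm (20.6 to 26.0), and the Ppard-/- control male 34M for Ercc8 at 12.3 cpm (9.56 to 10.7) and Gtf2h2 at 18.9 cpm (13.8 to 15.8). The WT control male 43M was highest for Ercc2 at 33.0 cpm (21.3 to 26.8) and Xrcc1 at 40.5 cpm (29.2 to 32.5). The WT UV female 77F was lowest for Ercc3 at 52.3 cpm (59.4 to 65.5) and highest for Rpa3 at 5.11 cpm (2.73 to 3.74). The WT UV female 57F was lowest for Rad18 at 6.04 cpm (8.22 to 10.1).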

How the results depend on the processing

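The counts of members called after UV stayed within 1.5 times those reported in every setting run, at 20 to 29 in WT and 23 to 33 in Ppard-/- (26 to 29 and 27 to 33 when 1 mouse was left out). The 2 members called between genotypes after UV became 5 by DESeq2, 0 by limma-trend, 1 without a filter on low counts, 0 in males alone, 7 in females alone (all lower), 0 in UV-exposed mice alone, and 0 to 5 when 1 mouse was left out (0 without WT UV 38M, 51F, 57F or 57M or Ppard-/- UV 58M, 66F or 72M, and 5 without Ppard-/- UV 59M). The difference of UV responses between genotypes, 0 members, became 4 by DESeq2 and 0 to 3 when 1 mouse was left out (3 without 71F). Whether males and females differ in the genotype effect was not tested, and the cause of these changes was not tested. Of 1260 recomputed values of the members given in full, 1208 kept their call or lack of one, 47 lost the call and 5 gained it. Of the values called in the reported or the recomputed fit, 0 changed sign. The uncalled Uvssa change in Ppard-/- changed sign without any 1 of 3 mice and in males alone. Of 28 members called in WT, 23 kept the call without any 1 mouse and 18 in all settings, and of 32 in Ppard-/-, 25 and 21. Over all genes, the 32 called between genotypes without UV became 78 by DESeq2, 5 in males, 2 in females and 15 in controls alone. The 514 called after UV became 1116 by DESeq2, 260 by limma-trend, 263 without a filter, 7 in males, 1383 in females and 40 in UV mice alone. The 119 called for the difference of responses became 841 by DESeq2, 55 without a filter, 6 in males and 12 in females. No paired analysis was possible because any 2 groups set against each other share at most 1 label number, and 0 in the same sex. Low counts limit Poli, Rpa3 and Xpa most, which had 48, 61 and 89 reads in their lowest mouse.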
